A study of Homo sapiens with 24 samples.

Results

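The tissue kallikreins of SAS cells, a line grown from a human oral squamous cell carcinoma, were followed across 24 RNA-seq libraries. The set comprised 9 genes, KLK5, KLK6, KLK7, KLK8, KLK9, KLK10, KLK11, KLK13 and KLK14, taken by symbol from a table of 58735 genes. The libraries formed 8 groups of 3. SAS cells carrying the E79Q form of NRF2 or wild-type (WT) NRF2 were each irradiated and given CB-839, irradiated alone, given CB-839 alone, or left as controls, here called untreated. CB-839, a glutaminase inhibitor, was used at 0.1 µM and radiation was a single exposure of 4 Gy. Drug or vehicle preceded irradiation by 24 h, and RNA was taken 24 h after it. The sources used here do not say when the unirradiated cells were harvested, how the E79Q allele was introduced or how many clones were used. All groups shared the SAS background. NRF2 is the transcription factor that turns on antioxidant and detoxifying genes, and E79Q lies in the segment that its repressor KEAP1 binds.

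Tissue kallikreins are secreted serine proteases, made as inactive proforms and encoded side by side in a single cluster. In stratified epithelium they form an activation cascade in which KLK5 cuts the proforms of other members, and together they digest the desmosomal proteins that hold surface cells to each other. Their activity is held down by inhibitors such as the SPINK5 product, and several of them also cut protease-activated receptors on the cell surface.

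The members differ at a position that sets which peptide bond they cut, and for that reason the coding stretch around the catalytic serine is shown for all 9 genes. Each line gives 30 coding bases read 5′ to 3′ from GENCODE release 29 transcripts on the minus strand of GRCh38 chromosome 19. The first capitals mark the codon 6 positions before the catalytic serine and the second capitals mark the serine codon.
KLK5: GACtcctgccagggtgatTCTggggggcct
KLK6: GATtcctgccagggtgatTCTgggggtccg
KLK7: AACgcctgcaatggtgacTCAgggggaccg
KLK8: GACacgtgccagggcgatTCTggaggcccc
KLK9: GGTtcctgccagggtgacTCTgggggcccc
KLK10: GACccttgccagagtgacTCTggaggcccc
KLK11: GACtcctgccagggtgacTCCgggggccct
KLK13: GACtcctgtgagggtgacTCTgggggcccc
KLK14: GACtcttgtcagggtgacTCTgggggaccc
KLK7 carried AAC and KLK9 carried GGT at the first marked codon, whereas the other 7 members carried GAC or GAT, which encode aspartate. An aspartate there is the textbook mark of trypsin-like cleavage after basic residues, and KLK7 is a chymotrypsin-like member of the family. Each stretch spans an exon junction. With the intron included it runs over chr19:50943769-50948651 in KLK5, chr19:50959299-50961755 in KLK6, chr19:50977674-50979799 in KLK7, chr19:50996197-50997762 in KLK8 and chr19:51003243-51003715 in KLK9. It runs over chr19:51014935-51015428 in KLK10, chr19:51022680-51023103 in KLK11, chr19:51056758-51058549 in KLK13 and chr19:51078142-51078826 in KLK14.

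All 9 members lay on the minus strand of chromosome 19 within 265 kb that hold 16 kallikrein rows in all. In GRCh38 coordinates of the deposited table, KLK5 (ENSG00000167754) spanned chr19:50943303-50953093 and KLK6 chr19:50958631-50969673. KLK7 spanned chr19:50976482-50984099, KLK8 chr19:50996007-51002711 and KLK9 chr19:51003111-51009634. KLK10 spanned chr19:51012739-51020175, KLK11 chr19:51022216-51028039, KLK13 chr19:51056206-51065114 and KLK14 chr19:51077495-51084245. The bases just before the annotated start are shown for the most abundant members, KLK5 and KLK6, and for KLK13, whose genotype difference was near the same size under every treatment. They come from RefSeq on GRCh38.p14, run 5′ to 3′ on the minus strand and leave out annotated exons: chr19:50953094-50953288 for KLK5, chr19:50969674-50969841 for KLK6 and chr19:51065115-51065342 for KLK13. Capitals mark a GC box, read on the opposite strand, that lies within the stretch printed for KLK6.
KLK5: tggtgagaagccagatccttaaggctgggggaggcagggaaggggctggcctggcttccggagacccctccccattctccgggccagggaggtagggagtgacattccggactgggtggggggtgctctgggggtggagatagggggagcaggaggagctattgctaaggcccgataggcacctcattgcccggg
KLK6: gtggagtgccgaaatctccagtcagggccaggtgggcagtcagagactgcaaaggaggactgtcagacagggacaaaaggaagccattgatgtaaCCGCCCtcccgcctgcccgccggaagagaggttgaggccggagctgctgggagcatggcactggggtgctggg
KLK13: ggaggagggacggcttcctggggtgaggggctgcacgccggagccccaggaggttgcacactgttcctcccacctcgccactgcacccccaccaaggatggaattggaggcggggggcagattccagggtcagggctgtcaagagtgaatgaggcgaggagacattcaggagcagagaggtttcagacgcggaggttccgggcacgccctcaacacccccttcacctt
Start-site windows were at hand for 8 of the 9 members, all but KLK8. They were searched on both strands for 4 motifs. The core of the element that NRF2 binds, TGACNNNGC, was held by 13.3% of 35116 RefSeq start-site windows of the same length and, among the members, by windows of KLK7 and KLK13. The AP-1 letters, TGANTCA, were held by 7.71% of all windows. The GC box, GGGCGG, was held by 45% of all windows and the TATA box, TATAAA, by 11.5%. The KLK5 and KLK10 windows held none of the 4 motifs, and no member held the AP-1 or TATA letters.

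The libraries held 14285084 to 23640197 counts. At these depths a count of 0 allows a level of up to 0.127 to 0.207 CPM (3 counts, counting error only), where CPM is the usual depth-scaled count, computed here with TMM factors. KLK6 had 89687 reads over the 24 libraries, KLK5 40865, KLK10 12319, KLK13 5571, KLK8 1749 and KLK7 1365. These 6 members passed the low-count filter of 0.551 CPM in all 24 libraries. KLK11 had 141 reads and passed in 4 libraries, all of them WT, so that it entered the tests through the genotype in which it was higher. KLK14 had 92 reads, between 0 and 10 per library, and KLK9 had 22 reads and was at 0 in 13 libraries, and neither was tested. In RNA from whole cultures, fewer expressing cells and less RNA per cell cannot be told apart. The labels do not say whether the 3 libraries of a group came from separate cultures, so p-values measure only the spread between libraries, which may be technical.

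Some libraries stood apart. The GC content of genes followed the deviations of the E79Q library 2 and library 1 treated with radiation plus CB-839 (r = 0.48 and -0.38 across genes) and of WT library 1 under that treatment (r = 0.26). In the remaining libraries r lay between -0.17 and 0.18. An alternative fit left out 4 libraries that an earlier analysis of these data had singled out for GC content: the E79Q library 2 and WT library 1 just named, CB-839 WT library 3 (r = 0.18) and untreated E79Q library 1 (r = 0.17). All 4 deviate in the positive direction, and E79Q library 1 of the combined treatment, at -0.38, was kept in that fit and left out in a fit of its own. Summed fibroblast markers ran from 7.53 to 45.2 CPM in untreated E79Q libraries, with the highest value in library 2, against 6.82 to 7.89 CPM in untreated WT libraries. NFE2L2, the gene that encodes NRF2, had 131.5, 137.3 and 134.7 CPM in untreated E79Q libraries, against 165.3, 173.2 and 167.1 CPM in untreated WT libraries (log2 fold change -0.33, SE 0.065, adjusted p = 0.000496). Gene counts cannot check which allele a library carried.

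**Figure D1:**
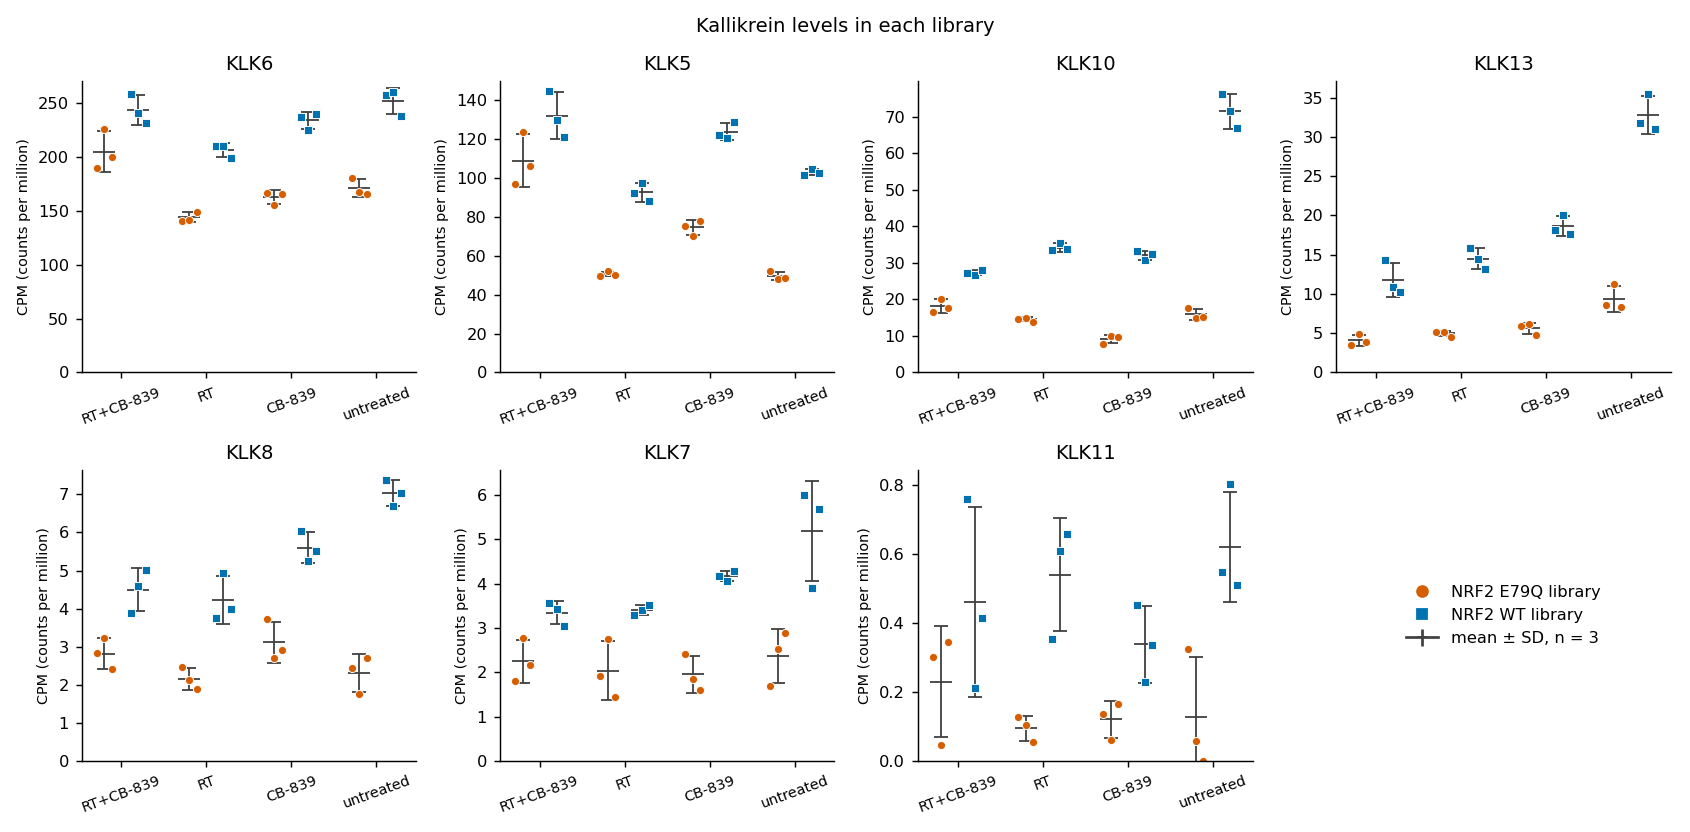
Level of the 7 tested kallikreins in CPM (linear axes from 0) in each of 24 libraries, by treatment. E79Q is drawn as orange circles and WT as blue squares, and bars give the mean ± SD of 3 libraries. WT libraries lay above E79Q libraries in most pairs, and for KLK10 the untreated WT libraries (66.8 to 76.3 CPM) stood far above every other group.

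Untreated E79Q cells had less RNA than untreated WT cells of all 6 kallikreins that passed the filter in every library. The steepest fall among well counted members was in KLK10, an epithelial kallikrein that has been studied as a candidate tumour suppressor. KLK10 had 17.6, 15 and 15.1 CPM in untreated E79Q libraries, against 76.3, 71.5 and 66.8 CPM in untreated WT libraries. The groups were far apart, and the level was 4.49-fold lower in E79Q cells (log2 fold change -2.17, SE 0.085, edgeR adjusted p = 7.8e-17). KLK13, a kallikrein of oral and oesophageal mucosa, had 8.60, 11.3 and 8.32 CPM in E79Q libraries, against 31.8, 35.5 and 31.0 CPM in WT libraries. Its log2 fold change was -1.80 (SE 0.13, adjusted p = 2.23e-11), again with no overlap. KLK8, also called neuropsin, had 2.45, 1.76 and 2.72 CPM in E79Q libraries, against 7.36, 6.70 and 7.04 CPM in WT libraries, and its log2 fold change was -1.60 (SE 0.17, adjusted p = 7.47e-08).

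The initiator of the cascade was affected as well. KLK5 had 52.0, 47.9 and 48.5 CPM in untreated E79Q libraries, against 101.5, 104.7 and 102.5 CPM in untreated WT libraries, and was 2.08-fold lower (log2 fold change -1.06, SE 0.075, adjusted p = 2.81e-11). KLK7, a chymotrypsin-like member that KLK5 activates in skin, was sparse, with 1.69, 2.53 and 2.89 CPM in E79Q libraries and 5.99, 3.90 and 5.67 CPM in WT libraries. It too was separated by genotype, at -1.13 on the log2 scale (SE 0.22, adjusted p = 0.000354). KLK6, the most abundant member in every group, showed the smallest fold change. It had 180.2, 167.8 and 165.0 CPM in E79Q libraries, against 257.4, 260.0 and 237.7 CPM in WT libraries (log2 fold change -0.56, SE 0.061, adjusted p = 7.7e-08).

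The 6 members counted in every library were all lower in untreated E79Q cells. KLK11, admitted through its WT libraries, was called lower as well, which its admission favours. Of all 15956 tested genes, 10.1% were lower and 9.62% higher in this comparison. The median log2 fold change of the 6 members was -1.37, against -0.01 over all genes tested. KLK11 had 6, 1 and 0 reads in E79Q libraries, against 10, 14 and 9 reads in WT libraries, and its adjusted p of 0.024 became 0.0864 to 0.112 when WT library 2 or E79Q library 2 or 3 was left out; without the 4 libraries named above its log2 fold change was -4.13 in place of -2.18. Without E79Q library 2, which held the collagen reads, the log2 fold changes were -2.13 for KLK10, -1.03 for KLK5 and -0.54 for KLK6, and all 6 well counted members were still called. KLK14 had 1, 6 and 10 reads in E79Q libraries, against 4, 1 and 1 reads in WT libraries, which overlap. KLK9 had 0, 1 and 1 reads in E79Q libraries, against 3, 1 and 4 reads in WT libraries.

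The genotype difference was present under each treatment, and for each tested member its estimate was smallest where radiation and CB-839 were combined. Of the 6 members counted in every library, all 6 were lower in E79Q cells with CB-839 alone, against 6.72% of all genes. All 6 were lower with radiation alone, against 4.95% of all genes. With radiation plus CB-839, 5 were lower, against 2.86% of all genes, and KLK7 was not called. KLK11 was called with radiation alone and not with CB-839 or both. No tested member was called higher in E79Q cells in any of the 4 comparisons, where 8.30% of all genes were higher with CB-839, 4.69% with radiation and 4.40% with both. The median log2 fold change of the 6 members was -0.98 with CB-839, -0.91 with radiation and -0.57 with both, against medians between -0.01 and 0.01 over all genes.

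**Figure D2:**
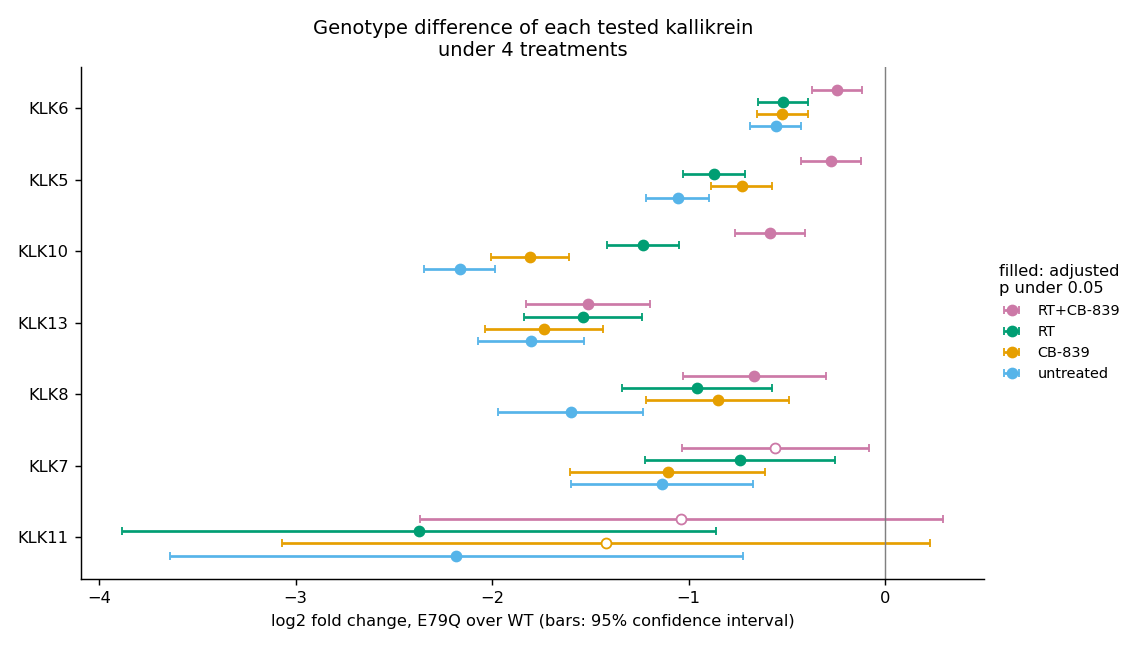
Log2 fold change of E79Q over WT for each tested kallikrein under 4 treatments, with 95% confidence intervals; filled points had an adjusted p under 0.05. KLK13 stayed between -1.80 and -1.51 under every treatment, whereas KLK10 ranged from -2.17 in untreated cells to -0.59 with radiation plus CB-839.

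KLK13 was 3.49-fold lower in untreated E79Q cells and 2.85-fold lower with radiation plus CB-839, and its log2 fold changes were -1.74 with CB-839 and -1.54 with radiation. KLK10 had log2 fold changes of -1.81 (SE 0.094) with CB-839, -1.23 (SE 0.086) with radiation and -0.59 (SE 0.085) with both. Its libraries did not overlap between genotypes in any treatment: with both agents it had 16.5, 20.2 and 17.8 CPM in E79Q libraries, against 27.2, 26.8 and 28.2 CPM in WT libraries. KLK5 with both agents had 96.8, 123.7 and 105.8 CPM in E79Q libraries, against 144.8, 129.7 and 120.9 CPM in WT libraries, and the groups overlapped (log2 fold change -0.28, SE 0.072, adjusted p = 0.0157). The KLK5 call under both agents was lost without WT library 1 (adjusted p = 0.11), E79Q library 1 (0.0774) or E79Q library 3 (0.0698). KLK6 with both agents was lower as well (log2 fold change -0.25, SE 0.06, adjusted p = 0.00916), and its adjusted p was 0.0597 without WT library 1. KLK8 with both agents (log2 fold change -0.67, SE 0.17, adjusted p = 0.0147) lost its call without WT library 2 or 3 or E79Q library 3. With radiation alone, KLK7 (log2 fold change -0.74, adjusted p = 0.0376) lost its call without any irradiated WT library or E79Q library 1 or 3 (adjusted p up to 0.202). KLK11 (adjusted p = 0.0314) also lost its call there in 5 of the fits that left out 1 library. Without the 4 libraries named above, the log2 fold changes with both agents were -0.31 for KLK5, -0.28 for KLK6, -0.70 for KLK7, -0.89 for KLK8, -0.68 for KLK10 and -1.50 for KLK13, with the same 5 called. KLK11, not called in either fit, changed direction there, to 0.04 in place of -1.04.

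After radiation alone, 5 of the 7 tested kallikreins were lower in WT cells and 2 in E79Q cells. Counts of members in the treatment comparisons and genotype differences are out of these 7. KLK11 is among them and was called in none of those comparisons. A test of the difference in effect between genotypes, given below, was passed by KLK10 alone. In WT cells KLK10 had 33.4, 35.5 and 33.7 CPM after radiation, against 76.3, 71.5 and 66.8 CPM without it (log2 fold change -1.06, SE 0.079, adjusted p = 7.43e-11). Every irradiated WT library lay under every untreated one. KLK13 had 15.8, 14.5 and 13.2 CPM in irradiated WT libraries, against 31.8, 35.5 and 31.0 CPM in untreated WT libraries, or -1.18 as a log2 fold change (SE 0.12, adjusted p = 3.86e-08). KLK8 fell by 0.73 (adjusted p = 0.0014), KLK7 by 0.61 (adjusted p = 0.0409) and KLK6 by 0.29 (adjusted p = 0.000975) on the log2 scale. The KLK7 call was lost without untreated WT library 1 or 3 or any irradiated WT library (adjusted p up to 0.181). In all, 5 members were lower and none higher in irradiated WT cells, against 8.49% of all genes lower and 9.41% higher. KLK5 had a log2 fold change of -0.15 (adjusted p = 0.16).

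In irradiated E79Q cells 2 members were lower, against 10.1% of all genes, and none was higher, against 12.2%. KLK13 had 5.17, 5.19 and 4.57 CPM in irradiated E79Q libraries, against 8.60, 11.3 and 8.32 CPM in untreated E79Q libraries (log2 fold change -0.91, SE 0.15, adjusted p = 4.66e-05). KLK6 had 140.8, 141.3 and 149.1 CPM in irradiated E79Q libraries, against 180.2, 167.8 and 165.0 CPM in untreated ones (log2 fold change -0.25, SE 0.061, adjusted p = 0.00336). KLK10 had 14.8, 14.9 and 13.9 CPM in irradiated E79Q libraries, against 17.6, 15 and 15.1 CPM without radiation, and the log2 fold change of -0.13 (SE 0.091) did not pass the test (adjusted p = 0.329). Whether irradiated and unirradiated libraries were prepared together is not stated, nor is the harvest time of unirradiated cells. Radiation, preparation and time of harvest therefore cannot be told apart. The sample labels give no preparation batch for the genotype or CB-839 groups either.

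When the cells also had CB-839, radiation went with higher KLK5, KLK6 and KLK10 in E79Q cells, and the other 4 tested members did not pass the test. KLK10 had 16.5, 20.2 and 17.8 CPM in E79Q libraries with radiation plus CB-839, against 7.79, 9.91 and 9.66 CPM with CB-839 alone (log2 fold change 0.99, SE 0.097, adjusted p = 2.86e-08). KLK5 had 96.8, 123.7 and 105.8 CPM with radiation plus CB-839, against 75.3, 70.1 and 78.0 CPM with CB-839 alone (0.55, SE 0.074, adjusted p = 4.44e-06), and KLK6 rose by 0.33 on the log2 scale (SE 0.061, adjusted p = 0.000192). No library of the combined treatment overlapped the drug-only libraries for these genes, and the share of all genes without overlap is not given here. That made 3 members higher, against 15.3% of all genes, and none lower, against 13.9%. KLK13 had the opposite sign, at -0.43 on the log2 scale, and missed the threshold (SE 0.17, adjusted p = 0.0547). It was called lower in 5 of 13 alternatives, among them DESeq2 (adjusted p = 0.0418), the replicate block (0.0297) and the fit without the 4 libraries named above (-0.58, adjusted p = 0.0105). Without E79Q library 2 of the combined treatment, the highest library for all 3 genes, the log2 fold changes were 0.91 for KLK10, 0.44 for KLK5 and 0.26 for KLK6, and all were still called. In WT cells with CB-839, 2 members were lower after radiation, against 10.4% of all genes, and none was higher, against 13.2%: KLK13 (log2 fold change -0.65, SE 0.13, adjusted p = 0.000369) and KLK10 (-0.23, SE 0.082, adjusted p = 0.0429). The KLK10 call was lost in every fit that left out 1 of the 6 libraries (adjusted p 0.0605 to 0.137).

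**Figure D3:**
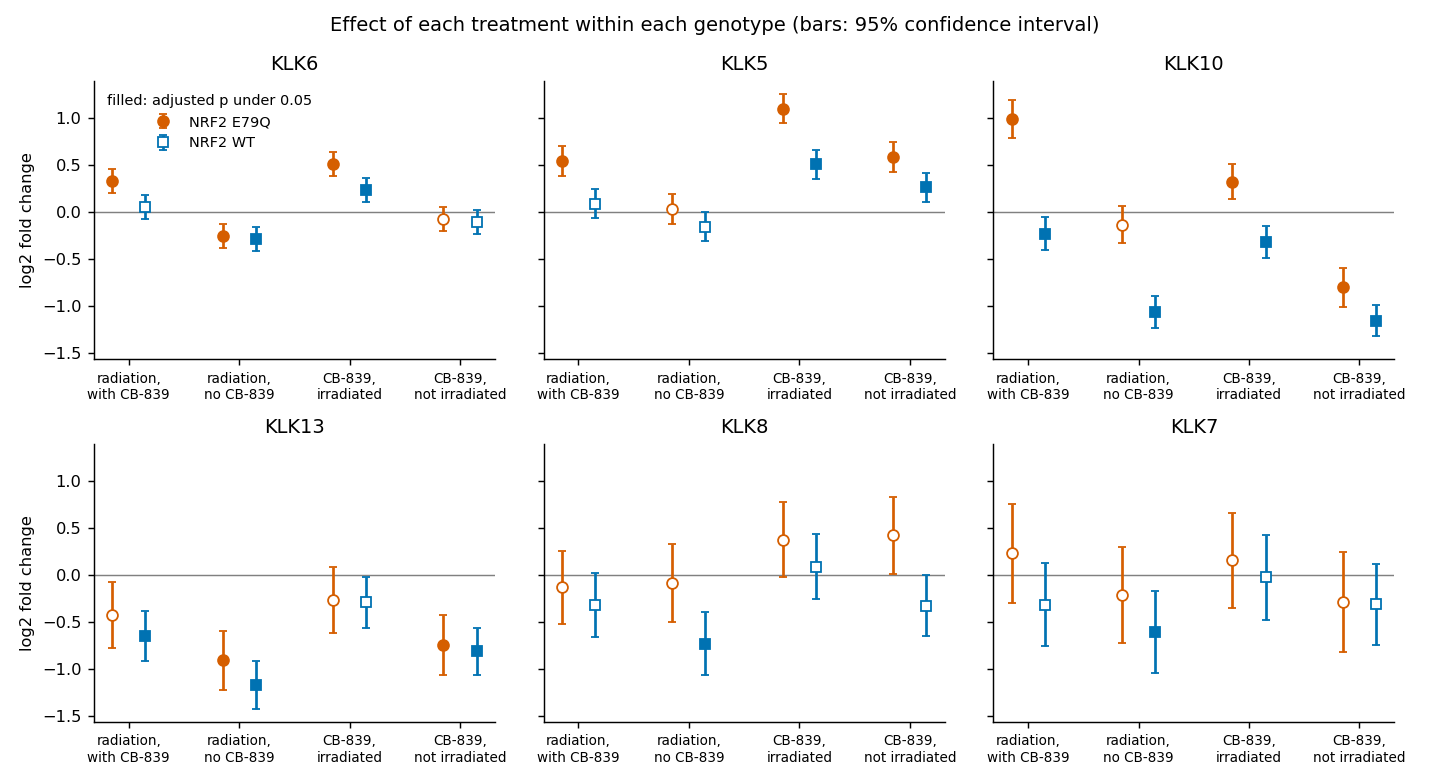
Log2 fold change of 6 kallikreins for radiation and for CB-839, each in the presence and absence of the other, with 95% confidence intervals; E79Q is drawn as orange circles and WT as blue squares, and filled points had an adjusted p under 0.05. For KLK10 radiation under CB-839 gave 0.99 in E79Q cells and -0.23 in WT cells.

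CB-839 alone raised KLK5 and lowered KLK10 and KLK13 in both genotypes. In E79Q cells KLK5 had 75.3, 70.1 and 78.0 CPM with CB-839, against 52.0, 47.9 and 48.5 CPM untreated (log2 fold change 0.59, SE 0.076, adjusted p = 2.05e-06). KLK10 had 7.79, 9.91 and 9.66 CPM with CB-839, against 17.6, 15 and 15.1 CPM untreated (-0.80, SE 0.099, adjusted p = 1.04e-06), and KLK13 fell by 0.75 on the log2 scale (SE 0.15, adjusted p = 0.000703). Drug and control libraries did not overlap for any of these genes, but the share of all genes without overlap is not given here. That was 1 member higher, against 9.44% of all genes, and 2 lower, against 10.4% of all genes. In WT cells KLK10 had 33.2, 30.8 and 32.3 CPM with CB-839, against 76.3, 71.5 and 66.8 CPM untreated (-1.16, SE 0.079, adjusted p = 1.98e-11). KLK13 fell by 0.82 on the log2 scale (SE 0.12, adjusted p = 1.46e-05) and KLK5 rose by 0.27 (SE 0.073, adjusted p = 0.0122) in WT cells, which gave 1 member higher, against 6.35% of all genes, and 2 lower, against 8.44% of all genes. The WT call of KLK5 was lost without untreated library 1 (adjusted p = 0.0505) or CB-839 library 3 (adjusted p = 0.055).

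In irradiated E79Q cells CB-839 went with higher KLK5, KLK6 and KLK10, 3 members against 12.9% of all genes, and none was lower, against 13.1%. KLK5 had 96.8, 123.7 and 105.8 CPM with both agents, against 49.6, 51.9 and 50.2 CPM with radiation alone, the largest rise among called members in the 8 treatment comparisons (log2 fold change 1.11, SE 0.075, adjusted p = 4.12e-11). KLK6 rose by 0.51 (SE 0.061, adjusted p = 6.76e-07). KLK10 rose by 0.33 (SE 0.089, adjusted p = 0.00806). Its adjusted p was 0.0756 without library 2 of the combined treatment and 0.0795 when only the groups compared were fitted. In irradiated WT cells KLK5 rose by 0.51 (SE 0.072, adjusted p = 3.7e-05) and KLK6 by 0.24 (SE 0.06, adjusted p = 0.0118), 2 members against 4.99% of all genes, and KLK10 fell by 0.32 (SE 0.081, adjusted p = 0.0127), 1 member against 4.53% of all genes. The WT calls of KLK6 and KLK10 were each lost when WT library 1 with both agents was left out (adjusted p = 0.0958 for KLK6 and 0.0525 for KLK10). They were likewise lost without an irradiated WT library, number 3 for KLK6 (0.0741) and number 2 for KLK10 (0.0588). KLK7, KLK8 and KLK11 passed no test of CB-839 in either genotype.

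The treatment effects were then compared between genotypes by subtracting the log2 fold change in WT cells from that in E79Q cells. KLK10 gave the 2 largest differences that were called, both for radiation. For radiation alone its difference was 0.93 on the log2 scale (SE 0.12, adjusted p = 3.17e-05), since its log2 fold change was -0.13 in E79Q cells and -1.06 in WT cells; it was the 1 member called higher, against 0.815% of all genes. For radiation under CB-839 the KLK10 difference was 1.22 (SE 0.13, adjusted p = 1.7e-06) and that of KLK5 was 0.46 (SE 0.10, adjusted p = 0.0212), 2 members against 0.363% of all genes. For CB-839 in irradiated cells the difference was 0.65 for KLK10 (SE 0.12, adjusted p = 0.00296) and 0.60 for KLK5 (SE 0.10, adjusted p = 0.00159), 2 members against 1.26% of all genes. No member was called lower, against 0.445%, 0.714% and 0.652% of all genes in these 3 comparisons. The KLK10 differences were still called without the 4 libraries named above, at 1.12 for radiation under CB-839 and 0.56 for CB-839 in irradiated cells, as were those of KLK5, at 0.39 and 0.57. The KLK5 difference for radiation under CB-839 was lost without CB-839 WT library 3, CB-839 E79Q library 1 or 2, or WT library 2 or 3 with both agents (adjusted p up to 0.111).

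For CB-839 in unirradiated cells, KLK5 (0.33, SE 0.11, adjusted p = 0.0369) and KLK8 (0.75, SE 0.25, adjusted p = 0.0413) were called, 2 members against 7.46% of all genes, and none was lower, against 6.83%. Among 12 fits that each left out 1 library, KLK5 lost its call in 9 and KLK8 in 8. KLK13, by comparison, had differences of 0.27, 0.22, 0.07 and 0.03 for radiation, radiation under CB-839, CB-839 and CB-839 in irradiated cells. None of these passed the test, and their 95% confidence intervals ran from -0.42 to 0.67 in all. The 4 differences of KLK6 lay between 0.03 and 0.28 and did not pass the test either.

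Compared per kilobase of gene model, KLK6 and KLK5 led in both genotypes. In untreated E79Q cells KLK6 had 86.5 ± 4.09 and KLK5 29.9 ± 1.33 CPM per kb (SD, n = 3), followed by KLK13 at 4.68 ± 0.816, KLK10 at 4.13 ± 0.382, KLK8 at 1.24 ± 0.264 and KLK7 at 0.973 ± 0.253. In untreated WT cells the values were 127.4 ± 6.19 for KLK6, 62.2 ± 0.994 for KLK5, 18.6 ± 1.24 for KLK10, 16.3 ± 1.20 for KLK13, 3.77 ± 0.177 for KLK8 and 2.13 ± 0.464 for KLK7. KLK10 and KLK13 overlapped in both genotypes, as did KLK8 and KLK7 in untreated E79Q cells. KLK11, KLK14 and KLK9 were each under 0.3 CPM per kb on average in both of these groups, within their spread of each other.

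The summed level of the 9 genes was 127.8 ± 5.09 CPM per kb in untreated E79Q cells and 230.9 ± 8.08 in untreated WT cells (SD, n = 3 each). With CB-839 it was 135.3 ± 5.34 in E79Q cells and 215.6 ± 5.85 in WT cells, and with radiation 111.8 ± 1.90 in E79Q cells and 180.4 ± 6.62 in WT cells. With both agents it was 178.9 ± 19 in E79Q cells and 220.0 ± 15.1 in WT cells, where the ranges of 162.8 to 199.8 and 206.7 to 236.5 came closest. KLK6 made up 67.7% of the untreated E79Q total and 55.2% of the untreated WT total. KLK10 made up 3.23% of the untreated E79Q total, against 8.04% of the untreated WT total, and KLK13 3.67% against 7.07%. These sums describe the members, and no test was run on them.

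**Figure D4:**
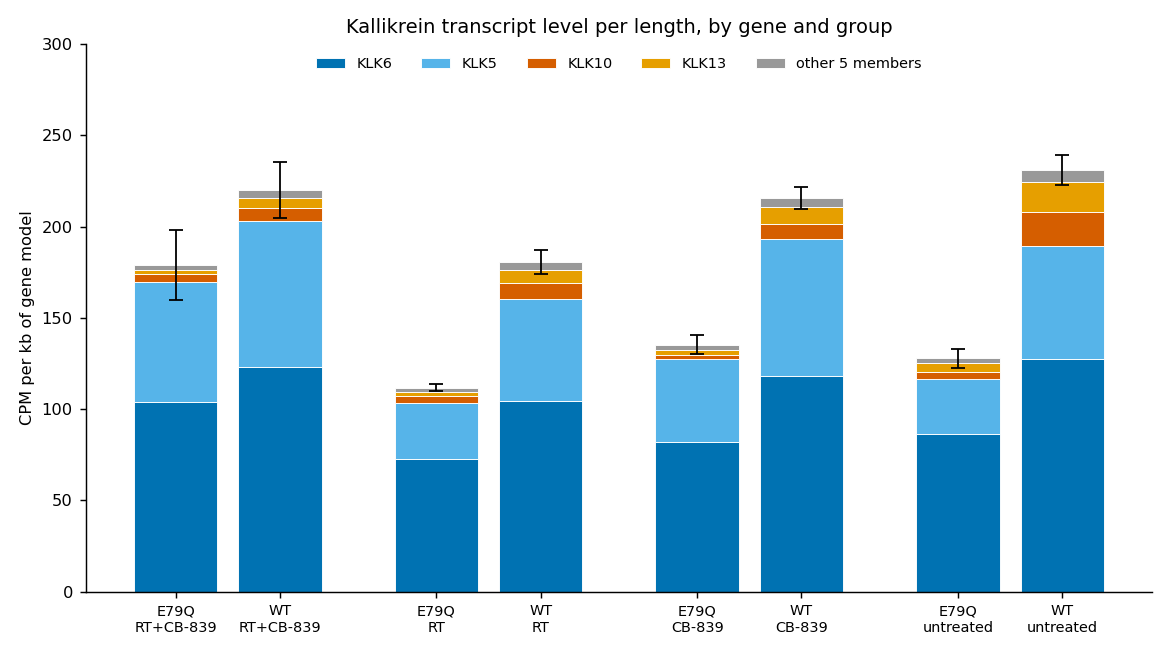
Stacked mean level of the 9 kallikreins, with the 5 least abundant as 1 grey block, in CPM per kb of gene model in each group, with the SD of the summed level over 3 libraries as black bars. KLK6 and KLK5 form most of every bar, and the sum is lower in E79Q cells than in WT cells in each treatment (127.8 against 230.9 in untreated cells).

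The tested genes beside the cluster did not differ between genotypes beyond the threshold. C19orf48, on the low-coordinate side, had a log2 fold change of 0.03 in untreated E79Q cells (adjusted p = 0.833), and CTU1, which encodes a tRNA-modifying enzyme on the other side, had 0.29 (adjusted p = 0.116). Neither was called between genotypes under any treatment, and CTU1 rose by 0.37 in irradiated WT cells (adjusted p = 0.0419). SIGLEC9 and 3 other neighbours were not tested, with 0 to 7 reads. Within the cluster, KLK2, KLK3, KLK4 and KLK15 had 0 reads in all 24 libraries, KLK12 had 16 reads and KLK1 had 99. These 6 genes and the pseudogene KLKP1 (36 reads) were not tested.

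**Figure D5:**
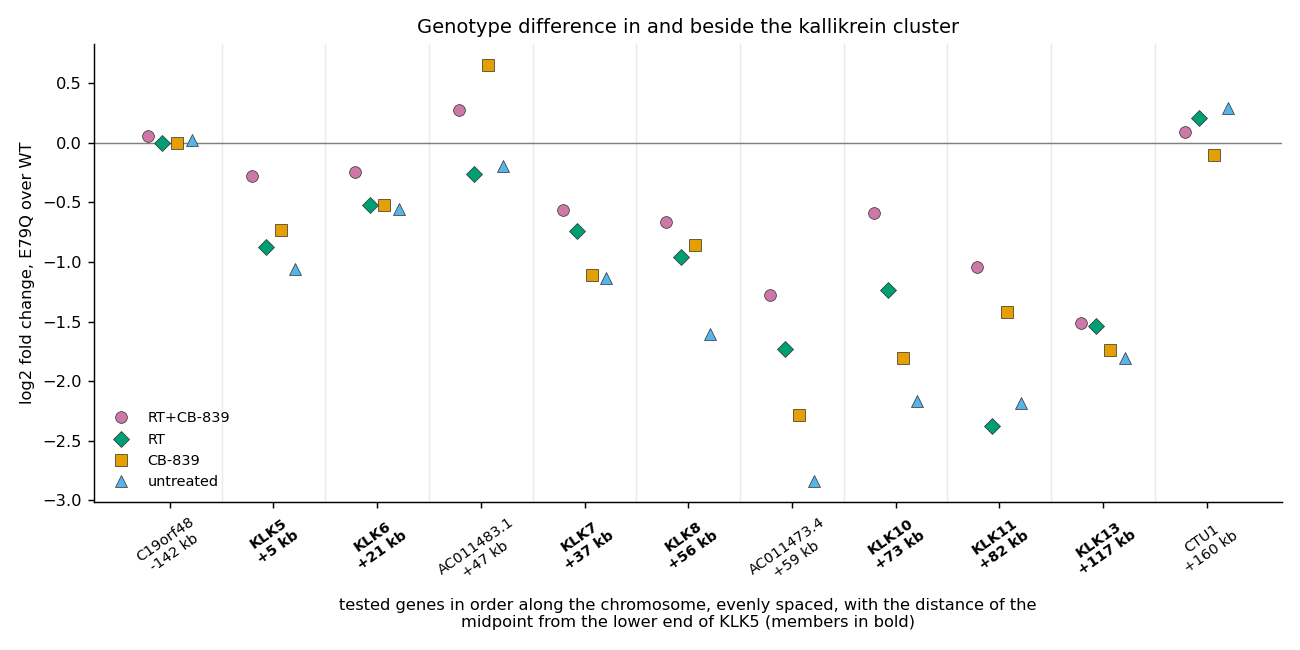
Log2 fold change of E79Q over WT for every tested gene in and beside the kallikrein cluster, in chromosomal order and evenly spaced, under 4 treatments; members are in bold and distances are from the lower-coordinate end of KLK5. C19orf48 lies near 0 and CTU1 between -0.10 and 0.29, with neither called. The tested kallikreins lie under 0 in all 4 treatments in this fit. Without the 4 libraries named in the text, KLK11 with both agents is at 0.04.

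Some annotated genes overlap the members, and no source used here gives the strand setting of the counting. AC011473.4, an annotated gene on the same strand that runs over KLK8 and KLK9, had 751 reads in all. It had 11, 10 and 6 reads in untreated E79Q libraries, against 56, 71 and 69 reads in untreated WT libraries (log2 fold change -2.84, SE 0.31, adjusted p = 7.53e-08). How reads in shared exons were assigned is not stated, so the counts of KLK8, KLK9 and AC011473.4 are uncertain. On the other strand AC011483.1 overlaps KLK6, KLK7, KLK8 and KLK9 and had 442 reads, with a log2 fold change of -0.19 (adjusted p = 0.839) in untreated cells. KLK5 and KLK6 overlap AC011483.2 (103 reads), and no read was counted for AC011473.2 inside KLK10. None of the 9 members shared a 50-base stretch of transcript with another kallikrein.

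A list of protease inhibitors and related genes was examined next, and 10 of 13 passed the filter. Not all of them act on kallikreins, so the counts describe the list and not the restraint of the family. In untreated E79Q cells 1 was higher, against 9.62% of all genes, and 6 were lower than in WT cells, against 10.1%, with a median log2 fold change of -0.32. The higher one was SERPINB5, or maspin, a serpin made by epithelial cells (0.31, SE 0.054, adjusted p = 9.43e-05). A2M, a broad protease trap, was lower (-1.35, SE 0.10, adjusted p = 1.14e-10). SPINK5, whose product inhibits KLK5, KLK7 and KLK14, averaged 1.02 ± 0.189 CPM in untreated E79Q cells and 0.95 ± 0.511 CPM in untreated WT cells (SD, n = 3 each), with a log2 fold change of 0.10 (adjusted p = 0.904). After radiation, 8 genes of this list were higher in E79Q cells (median log2 fold change 0.40) and 6 in WT cells (median 0.28), and none was lower. Over all genes, 12.2% were higher in E79Q cells and 9.41% in WT cells, and 10.1% and 8.49% were lower. SPINT1, a membrane inhibitor of the protease matriptase, rose by 0.45 in both genotypes (adjusted p = 8.25e-06 in E79Q and 9.29e-06 in WT). CST6, a cystatin of the epidermis, rose with CB-839 by 1.07 in E79Q cells (adjusted p = 1.17e-08) and by 0.88 in WT cells (adjusted p = 3.05e-07).

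Among proteases that activate kallikreins or act beside them, 9 of 12 were tested, and in untreated E79Q cells 3 were higher, against 9.62% of all genes, and 2 lower, against 10.1%. MMP1, the interstitial collagenase, averaged 760.6 ± 58.2 CPM in untreated E79Q cells and 197.8 ± 11.2 CPM in untreated WT cells (log2 fold change 1.94, SE 0.055, adjusted p = 7.93e-20). MMP10 (2.51, SE 0.36, adjusted p = 9.12e-06) and PLAU, the urokinase gene (0.99, SE 0.065, adjusted p = 6.38e-12), were the other two. ST14, which encodes matriptase, was lower (-0.91, SE 0.11, adjusted p = 3.96e-07), and so was the cathepsin gene CTSV (-0.75, SE 0.14, adjusted p = 0.000364). The summed level of the 12 proteases was 950.2 to 1097 CPM in untreated E79Q libraries and 374.2 to 407 CPM in untreated WT libraries. That sum is weighted to MMP1, at the means given above, and the median log2 fold change of the 9 tested genes was 0.11. After radiation 7 of them were higher in E79Q cells, against 12.2% of all genes, and 5 in WT cells, against 9.41%. None was lower, against 10.1% of all genes in E79Q cells and 8.49% in WT cells.

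Of receptors and substrates 10 of 16 were tested, and in untreated E79Q cells 3 were higher, against 9.62% of all genes, and 3 lower, against 10.1%. F2RL1, which encodes the receptor that several kallikreins cut, was higher (0.46, SE 0.04, adjusted p = 1.8e-09), as were F2RL2 (1.10, SE 0.14, adjusted p = 1.03e-06) and F2R. The adhesion genes CDH1 (-0.93, SE 0.054, adjusted p = 4.58e-13), DSG3 (-0.79, SE 0.12, adjusted p = 2.83e-05) and DSC2 were lower. DSG1, which encodes the desmoglein of the upper epidermis that kallikreins digest, had 0 reads in all 24 libraries.

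Markers of the squamous line were lower along with the kallikreins between genotypes. In the treatment comparisons they went with the kallikreins in some and not in others. All 10 keratin and epithelial markers tested were lower in untreated E79Q cells, against 10.1% of all genes, with a median log2 fold change of -0.68, among them KRT14 (-1.49, SE 0.11, adjusted p = 4.83e-11) and KRT6A (-1.56, SE 0.17, adjusted p = 7.42e-08). Their summed level was 5561 to 6029 CPM in untreated E79Q libraries and 8980 to 9304 CPM in untreated WT libraries, and all 10 were detected in both genotypes. With CB-839 8 of the 10 were lower in E79Q cells, with radiation 10 and with both agents 7. These shares stand against 6.72%, 4.95% and 2.86% of all genes lower. For radiation in E79Q cells under CB-839, 6 markers were higher and 1 lower (median log2 fold change 0.64), and 3 kallikreins were higher. For CB-839 in irradiated E79Q cells, 3 markers were higher and none lower (median 0.02), and 3 kallikreins were higher. Of all genes, 15.3% and 12.9% were higher in these comparisons, and 13.9% and 13.1% lower. After radiation alone, 3 markers were higher and 3 lower in WT cells, and 4 were higher and 2 lower in E79Q cells. Kallikreins were lower there, 5 in WT and 2 in E79Q cells, and none was higher. With CB-839 alone, 5 markers were lower in WT cells, and 1 was higher and 3 lower in E79Q cells. In both genotypes 1 kallikrein was higher with the drug and 2 were lower. The shares of all genes for these comparisons are given above. For radiation in WT cells under CB-839, 5 markers were higher and 2 lower (median log2 fold change 0.25), whereas 2 kallikreins were lower. Of all genes, 13.2% were higher and 10.4% lower there, and KLK10 lost its call in 9 of 13 alternatives. For CB-839 in irradiated WT cells, 5 markers were lower and none higher (median -0.17), whereas 2 kallikreins were higher and 1 lower. Of all genes, 4.99% were higher and 4.53% lower there, and KLK6 and KLK10 each lost their calls in 2 of 13 alternatives. CDH1 is in this list as well as among the substrates. Of 21 genes of terminal keratinocyte differentiation, 10 were tested. In untreated E79Q cells none was higher, against 9.62% of all genes, and 3 were lower, against 10.1%. These were ELF3 (-1.64, SE 0.087, adjusted p = 8.76e-14), S100A9 (-1.47, SE 0.16, adjusted p = 4.77e-08) and GRHL3 (-1.50, SE 0.44, adjusted p = 0.0165). That list summed to 58.8 to 63.8 CPM in untreated E79Q libraries and 107.7 to 117.7 CPM in untreated WT libraries. The part of these markers in the kallikrein result was not tested. None of 5 leukocyte markers could be tested, and they summed to at most 0.297 CPM in any library. Of 5 fibroblast markers, 3 were tested and 2 were higher in untreated E79Q cells, where library 2 had 29.5 CPM of COL1A1 and 15.3 CPM of COL1A2; DCN had 1 read and LUM 0 there. Of 3 endothelial markers, 2 were tested and 1 was lower in untreated E79Q cells, and the list summed to at most 4.96 CPM in any library.

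Across the 8 group means, the members followed each other to different degrees, with Pearson r between 0.43 (KLK5 and KLK13) and 0.95 (KLK7 with KLK10 and with KLK13). Among 10943 other genes, those most like KLK10 were ARHGEF16 (r = 0.99), PGM1 (0.98) and C1orf116 (0.97). Those most like the mean profile of the tested members were IGFBP3 (r = 0.98), S100A14 (0.97) and NDST1 (0.97). That profile includes KLK11 at the same weight as the rest. KLK11 entered the tests through its WT libraries, which favours a genotype contrast in the profile. In untreated E79Q cells IGFBP3 was lower by a log2 fold change of -3.60 (adjusted p = 7.93e-20) and S100A14 by -1.09 (adjusted p = 1.06e-12). These correlations describe 8 points that share the genotype contrast, libraries and scaling.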

How the data were processed

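RNA-seq counts of 24 SAS libraries in 8 groups of 3 were used; groups were taken from sample titles. The series text describes 12 irradiated samples in 4 groups, whereas labels and table hold 24, and all were used. The deposited table holds raw counts per gene, not normalized, and the deposited gene length column holds other values, in base pairs. Per the submitters' processing notes, STAR, HTSeq and GRCh38 were used; no source used here gives versions, annotation release or strand setting. The 3 columns whose names use a shortened prefix were assigned to irradiated E79Q cells with CB-839 by title.

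The tests used edgeR 4.0.16 under R 4.3.3. Of 34983 genes that had a read, filterByExpr kept 15956. After TMM scaling, edgeR's quasi-likelihood test was run on all 24 libraries, with a mean for each of 8 groups and 16 residual degrees of freedom. There were 16 comparisons, 12 between groups and 4 differences between genotypes. Adjusted p is Benjamini-Hochberg over all 15956 genes in each comparison, and a gene was called at an adjusted p under 0.05. The smallest exact p that 3 against 3 libraries allow is 0.1, so calls rest on the spread that edgeR pools. Overlap of libraries is described for members only, without the share over all genes, and adds no test. Comparisons within a genotype or treatment share control libraries, so their calls are not independent of each other. Depths of 14285084 to 23640197 counts set the precision. Limits at 0 cover counting error only, and intervals cover only the spread between libraries, which may be technical.

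The members, gene lists and rule for named genes were chosen with earlier results of these data known. Named were all 9 members; any gene of the fixed lists (inhibitors, partner proteases, receptors and substrates, cell type markers); the 3 nearest genes on each side of the cluster; and genes of highest Pearson r over 8 group means of log2 CPM (prior count 2, mean of at least 1). Alternatives were DESeq2 1.42.0, limma-voom (limma 3.58.1), RLE scaling, no filter, the compared groups alone, replicate number as a block, 4 libraries left out together (untreated E79Q 1, CB-839 WT 3, and library 1 of WT and 2 of E79Q with both agents) and each library left out in turn. The procedure was tested on simulated data. Motifs were searched as plain letters.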

Additional observations from a re-analysis of the deposited data

Results flagged for a closer look

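The effect of a treatment differed between genotypes for KLK10 in 3 comparisons, by a test of the difference itself (edgeR, E79Q minus WT, log2 scale). For radiation alone the difference was 0.93 (SE 0.12, adjusted p = 3.17e-05), with every irradiated WT library under every untreated WT library and a log2 fold change of -0.13 in E79Q cells. For radiation under CB-839 it was 1.22 (SE 0.13, adjusted p = 1.7e-06): KLK10 was higher in E79Q cells with both agents than with the drug alone, and lower in WT cells, where the fall (-0.23, adjusted p = 0.0429) lost its call in 9 of 13 alternatives. For CB-839 in irradiated cells it was 0.65 (SE 0.12, adjusted p = 0.00296), with log2 fold changes of 0.33 in E79Q cells and -0.32 in WT cells. The call within each genotype was lost in 2 of 13 alternatives. KLK5 differed for CB-839 in irradiated cells (0.60, SE 0.10, adjusted p = 0.00159), for radiation under CB-839 (0.46, SE 0.10, adjusted p = 0.0212) and for CB-839 in unirradiated cells (0.33, SE 0.11, adjusted p = 0.0369). The last of these lost its call in 11 of 19 alternatives and the radiation difference under CB-839 in 6 of 19. KLK8 differed for CB-839 in unirradiated cells (0.75, SE 0.25, adjusted p = 0.0413), a call lost in 12 of 19 alternatives.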

How the results depend on the processing

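Of 112 pairs of a tested member and a comparison, 56 were called, and 41 of those were called under every alternative run; 15 lost the call at least once, and 7 others gained one. No called value changed direction; among values not called some did, such as KLK11 for E79Q against WT with both agents (0.04 without the 4 libraries, -1.04 with them). For E79Q against WT with radiation plus CB-839, 5 members were called, against 2 when only those groups were fitted (KLK5, KLK6 and KLK8 lost) and 3 to 5 with 1 library left out (3 without WT library 1 or E79Q library 3). For radiation in WT cells under CB-839 the count of 2 became 1 with no filter, with the replicate block, without the 4 libraries and with any 1 library left out, each time through KLK10. For the genotype difference in radiation effect under CB-839 the count of 2 became 1 in the compared groups alone and 1 to 3 with 1 library left out. For the difference in CB-839 effect the count of 2 became 1 with DESeq2, RLE scaling or the replicate block, 0 with no filter, and 0 to 2 with 1 library left out. The cause was not tested. Counts with 1 library left out, KLK11 included, were 6 to 7 for E79Q against WT in untreated cells, 5 to 6 with radiation and 6 with CB-839. Replicate numbers did not pair the libraries (4 of 24 correlated best with their own number), and under the replicate block KLK7 also lost its calls for E79Q against WT with radiation (adjusted p = 0.0508) and for radiation in WT cells (0.0533). Depth limits KLK9, KLK11 and KLK14, with at most 16 reads in a library.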
